A study of Mus musculus with 2 samples.

Results

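The 38 genes described here are the transcription factor gene Myc and 37 genes whose products make or modify ribosomal RNA or assemble ribosomal subunits, mostly in the nucleolus. They were fixed by name with earlier results of these data known, so counts of them beside all genes are descriptive. All 38 were found among the 31053 genes of the deposited count matrices. Cells came from the proximal small intestine of 2 mice whose genotype was VilCreER Apc fl/fl (called APC mice). In these animals tamoxifen activates a Cre recombinase driven by the villin promoter and so deletes Apc in the intestinal epithelium. Each mouse received 2 injections of 2 mg tamoxifen separated by 24 h, and tissue was collected on day 4, with dead cells removed by a DAPI sort. Age and sex were not given in the labels. No animal with intact Apc was analysed here, so every comparison is between cell classes of the same 2 mice, and a feature of crypt cells in general cannot be told apart from one of crypt cells that lost Apc.

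MYC is a transcription factor that binds DNA as a dimer with MAX, most tightly at the sequence called the E-box, and it is a well known target of Wnt signalling in intestinal crypts. Ribosome production starts with RNA polymerase I, which transcribes the ribosomal DNA. Small nucleolar ribonucleoproteins (snoRNPs) then modify the RNA at guided positions, and separate sets of assembly factors cut and fold it into the small and the large subunit. Crypts hold the dividing cells of the intestinal epithelium, while enterocytes on the villus no longer divide.

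The libraries held 85670711 and 38716743 unique molecular identifiers (UMIs, counts of single mRNA molecules read from the 3′ end), and 7941 and 6957 cells passed the filters of the study. Only 16 of the kept barcodes were found in both libraries. Levels are given as UMIs per 1000000 UMIs of a class and mouse (CPM), which needs no correction for gene length in 3′ counting. The Apc transcript was at 55.9 and 70.5 CPM in the crypt-like class of mice 1 and 2 and at 79.2 and 51.1 in the enterocyte-like class, but counts from the 3′ end do not show whether an exon was deleted. Cells were clustered without the 38 genes and without the other lists used below, and clusters were named from marker genes. Pancreatic acinar-like cells were present in mouse 1 only and were not compared.

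The crypt-like class held 119 cells in mouse 1 and 30 in mouse 2, in 1 cluster for which 15 of 18 crypt markers and all 16 cycling markers counted. The other classes were enterocyte-like (596 and 138 cells), tuft-like (27 and 22), plasma-like (2226 and 609), B-like (390 and 93), T-like (2995 and 5208), myeloid-like (829 and 619) and cycling leukocyte-like cells (40 and 46). A cluster of 37 and 33 cells met the rule for the Paneth name, with 14 of 14 Paneth markers. All 11 goblet markers and 7 of 14 enteroendocrine markers also counted for it, and Paneth genes led in only 20 and 8 of its cells. It is therefore called the mixed secretory cluster. Crypt markers also counted for it (11 of 18) and for the tuft-like cluster (14 of 18, beside 7 of 12 tuft markers). Summed, the 18 crypt markers were at 24778 and 1342 CPM in the mixed secretory cluster and at 2404 and 4010 in tuft-like cells. Crypt-like cells had 1949 and 2176, so this sum did not set them above these classes in both mice. Of the cycling leukocyte-like cells, plasma-cell genes led in 29 and 26, T-cell genes in 7 and 20 and B-cell genes in 4 and 0.

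The 38 genes together made up a far larger share of the transcripts of crypt-like cells than of any other class (the plot of summed levels). In crypt-like cells they took 11866 CPM in mouse 1 (95% exact Poisson interval 11706 to 12027) and 11697 in mouse 2 (11414 to 11986). Intervals of this kind cover counting error only. Enterocyte-like cells had 1824 and 2288, so the crypt-like level was 6.51-fold and 5.11-fold higher in the 2 mice. The 4 enterocyte-like clusters ranged from 835 to 2845 in mouse 1 and from 449 to 4542 in mouse 2, all below the crypt-like level. The level was 2570 and 3659 in the mixed secretory cluster and 4199 and 3854 in tuft-like cells.

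Among leukocytes, B-like, T-like and myeloid-like cells lay close together as whole classes. Their levels were 3397 and 3039, 3355 and 3280, and 3389 and 3524 CPM. Cycling leukocyte-like cells had 3665 and 3058, which overlaps this range. Single clusters spread more widely, from 2636 to 5190 in T-like cells of mouse 1 and from 2827 to 4201 in mouse 2. Myeloid-like clusters ran from 2243 to 4164 and from 2565 to 4719. Plasma-like cells were lowest with 702 and 677, but immunoglobulin genes took 61.3% and 61.1% of their UMIs. With immunoglobulin UMIs left out of the total, plasma-like cells had 1814 and 1742 and cycling leukocyte-like cells 4982 and 3926, 2.42-fold and 2.98-fold below the crypt-like cells on the same scale. Over both mice the levels were 11781 ± 119 (SD, n = 2) in crypt-like and 2056 ± 329 (SD, n = 2) in enterocyte-like cells.

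**Figure D1:**
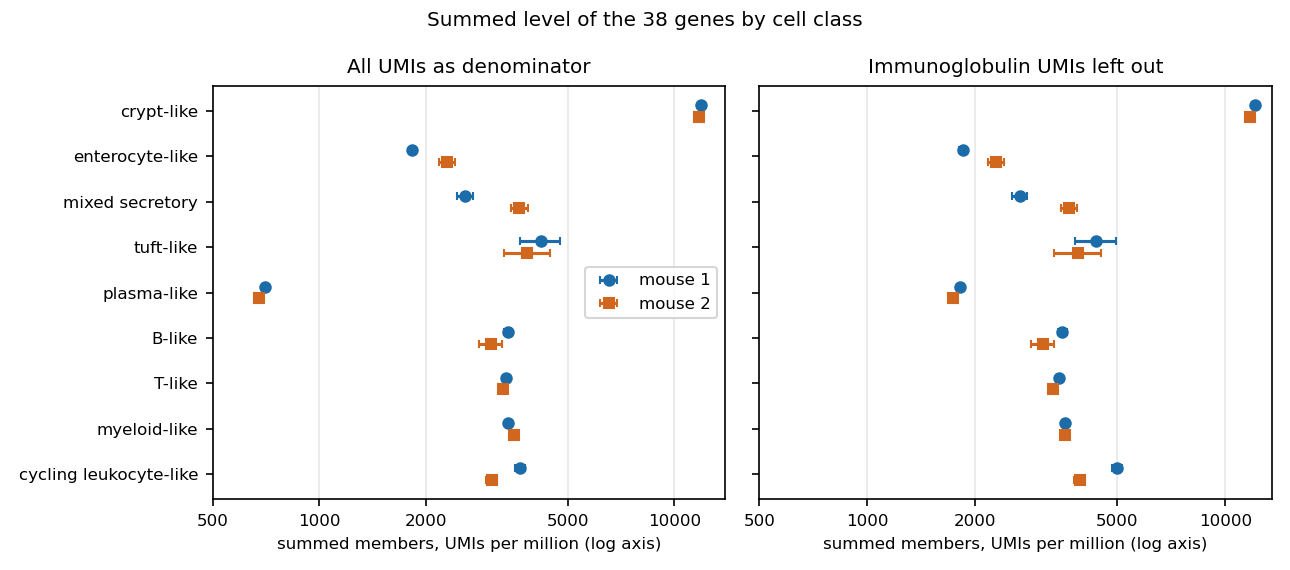
Summed level of the 38 genes in CPM (horizontal log axis) for each cell class and mouse, with 95% exact Poisson intervals as bars, against all UMIs (left) and against UMIs without immunoglobulin genes (right). Crypt-like cells lie at 11866 and 11697 on the left, above every other class in both mice, and leaving out immunoglobulin moves plasma-like cells from 702 and 677 to 1814 and 1742.

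Npm1 and Ncl dominated this sum. Npm1, like many ribosomal protein genes, has processed pseudogenes of near-identical sequence, so its level is uncertain where reads could not be placed uniquely. Npm1 and Ncl together supplied 57.9% and 56.8% of the members' UMIs in crypt-like cells, against 39.7% and 40.9% in the enterocyte-like class. Without them the crypt-like level was still at least 2.04-fold that of any other class in either mouse. Crypt-like cells were also larger in counts, with medians of 11872 and 17774 UMIs against 4977 and 3074 in enterocyte-like cells. Per cell they carried 176 and 216 member UMIs, against 12.8 and 10.7 in enterocyte-like cells.

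Most single genes were highest in crypt-like cells too. On sums scaled by the trimmed mean of M-values (TMM), crypt-like cells had the highest level of 9 classes in both mice for 31 of the 38 genes, while this held for 6.73% of all 11846 genes tested. The exceptions were Myc, Bop1, Nop2, Polr1a, Imp3, Imp4 and Heatr1. On this scale Imp3, a protein that guides U3 snoRNA to the ribosomal RNA, was highest in plasma-like cells of both mice. In CPM it averaged 39.2 in plasma-like cells over both mice, against 111 in crypt-like cells, so this order depends on the scaling.

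**Figure D2:**
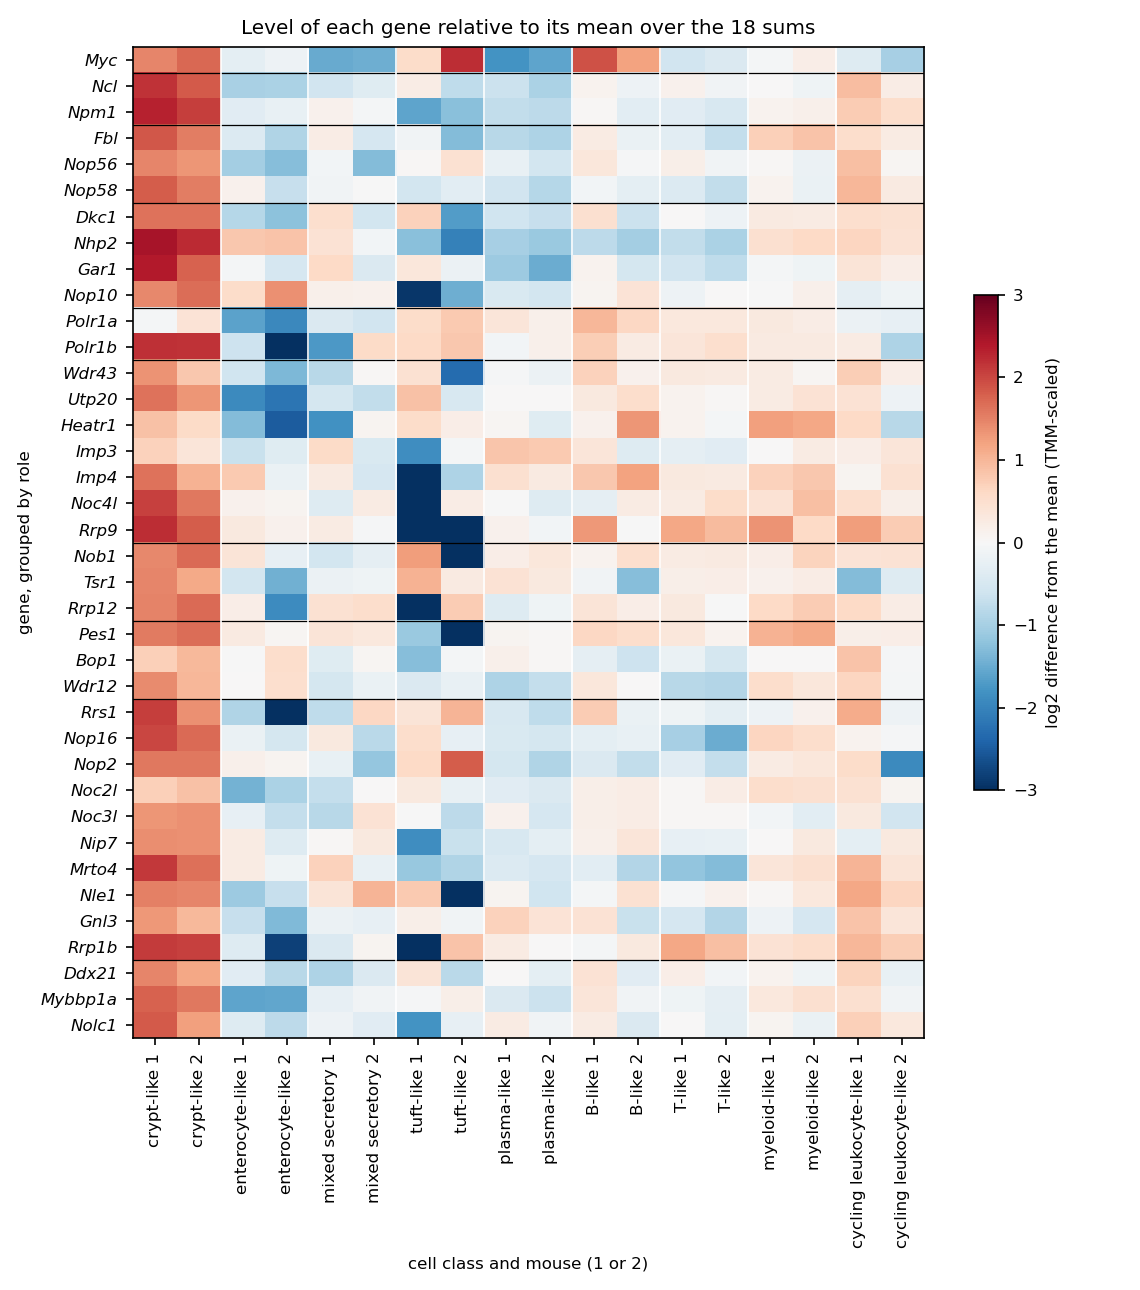
Level of each of the 38 genes in each class and mouse as the log2 difference from that gene's mean over the 18 sums (colour, TMM-scaled, drawn up to 3 in either direction), with genes grouped by role between the black lines. Columns of crypt-like cells are red for nearly every gene, whereas Myc is also high in B-like cells and in tuft-like cells of mouse 2.

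Crypt-like and enterocyte-like cells were compared to ask how the module differs between dividing and absorptive epithelium. Of the 38 genes, 36 were higher in crypt-like cells and none was lower, with a median log2 fold change of 1.92 (edgeR quasi-likelihood test, Benjamini-Hochberg adjusted p under 0.05). Among all 11846 genes tested, 15.6% were higher and 21.9% were lower, and their median log2 fold change was -0.08. Each of the 36 genes had the same direction in both mice. The remaining 2 were Bop1 (log2 fold change 0.63 ± 0.32 SE, adjusted p = 0.138) and Nop10 (0.55 ± 0.30 SE, adjusted p = 0.167). Here and below, with 2 mice, a gene that missed the threshold is not shown to be equal between classes. With library size alone as the scaling 37 of the members were higher and none lower, while the counts over all genes turned from 1852 higher and 2594 lower to 2576 higher and 1709 lower.

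Markers of the cell cycle moved with this difference. The 16 cycling markers summed to 3552 and 4503 CPM in the crypt-like class and to 142 and 172 among enterocyte-like cells, in which 15 and 12 of the 16 were seen. Their part in the result was not tested. In mouse 1 the 98 crypt-like cells with a UMI of Mki67 or Top2a had 12109 CPM of the members together and the 21 without had 9658, at median depths of 13407 and 7751 UMIs. Enterocyte-like cells with such a UMI, 19 and 6 in number, had 2863 and 3346, and those without had 1741 and 2245. Median depths were 12450 and 3157 UMIs with such a UMI and 4935 and 3071 without. For the 6 cells of mouse 2 the counting interval was 2677 to 4133. Ptprc, the pan-leukocyte marker CD45, was seen in 12.1% of the crypt-like cells. Without those cells, an alternative chosen after the data were seen, 36 genes were again higher and none lower. Among the 11870 genes tested there, 1760 were higher and 2686 lower.

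Myc itself was counted at 74.6 and 103 CPM in crypt-like cells (132 and 57 UMIs) and at 16.2 and 21.7 in enterocyte-like cells (68 and 14 UMIs). The log2 fold change was 1.84 ± 0.34 (SE, adjusted p = 0.000635). Myc lies at chr15:61985391-61990374 on the plus strand of GRCm38, the assembly also called mm10. The widest differences of the module were found in other genes. Ncl, which encodes nucleolin, an RNA-binding protein of the nucleolus, was at 2690 and 2501 CPM in crypt-like cells, against 226 and 282 in the enterocyte-like class, a log2 fold change of 2.97 ± 0.33 (SE, adjusted p = 1.09e-05). For Npm1, which encodes the nucleolar chaperone nucleophosmin, the values were 4180 and 4147 against 497 and 654, with a log2 fold change of 2.47 ± 0.25 (SE, adjusted p = 5.01e-06).

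All 3 members of the box C/D snoRNP, the complex that methylates ribosomal RNA, were higher in crypt-like cells. Fbl, its methyltransferase, was at 305 and 280 CPM against 47 and 40.3 in enterocyte-like cells. Nop56 was at 184 and 194 against 24.6 and 24.8, and Nop58 at 353 and 336 against 81.6 and 55.8. Their log2 fold changes were 2.30 ± 0.32, 2.50 ± 0.35 and 1.87 ± 0.31 (SE). Of the box H/ACA snoRNP, which converts uridine to pseudouridine, Dkc1 (2.60), Gar1 (2.33) and Nhp2 (1.54) passed the test and Nop10 did not. Nop10 was abundant in both classes, at 602 and 814 against 241 and 513.

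Both core subunits of RNA polymerase I were higher. Polr1b was counted at 29.9 and 34.4 CPM in crypt-like cells, against 3.10 in enterocyte-like cells of mouse 1 and 0 UMIs in mouse 2 (log2 fold change 3.15 ± 0.52 SE, adjusted p = 0.000265). Polr1a, the largest subunit, was at 19.2 and 30.7 against 4.77 and 4.65. All 7 members that act in the small-subunit processome, the particle that forms on the nascent transcript, passed the test, from Imp4 (0.91) to Utp20 (3.51). Utp20 had the widest difference of the module, with 50.3 and 47 against 3.10 and 3.10 CPM, which rest on 13 and 2 UMIs in enterocyte-like cells (adjusted p = 3.71e-06).

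All 10 other large-subunit factors of the module were higher, with log2 fold changes between 1.35 and 3.07. Rrs1, which brings 5S ribosomal RNA into the particle, was at 94.3 and 66.9 CPM against 8.83 and 1.55 (log2 fold change 3.07 ± 0.52 SE, adjusted p = 0.000312). Rrp1b was at 54.8 and 61.5 against 7.16 and 1.55 (2.79 ± 0.41 SE, adjusted p = 9.13e-05). For both genes the enterocyte-like value of mouse 2 came from 1 UMI. Pes1 and Wdr12 of the PeBoW complex, which matures the large subunit, were higher, and Bop1 of the same complex was the gene that missed the threshold. The late small-subunit factors Nob1, Tsr1 and Rrp12 were all higher, as were the nucleolar proteins Ddx21, Mybbp1a and Nolc1. Mybbp1a reached 242 and 246 against 17.4 and 21.7 CPM (3.26 ± 0.28 SE, adjusted p = 1.75e-06).

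The share of cells with a transcript gave the same order at equal depth. When every cell was thinned to 1000 UMIs, Ncl was seen in 85.8% and 90.3% of crypt-like cells, against 16.6% and 18.6% of enterocyte-like cells. Unthinned, the shares were 98.3% and 100% against 47.8% and 38.4%. Thinned shares of Myc were 7.78% and 9.64% against 1.38% and 1.30%, from unthinned shares of 55.5% and 63.3% against 7.72% and 6.52%. No class is known to lack these genes, and the lowest thinned share of Myc was found in plasma-like cells (0.247% and 0.263%). Immunoglobulin, 61.3% and 61.1% of the UMIs in plasma-like cells, was part of the thinned counts. For all 38 genes the thinned share was larger in crypt-like cells of both mice than in enterocyte-like cells of either, which held for 35.6% of the genes tested. Thinning left out 33 and 17 enterocyte-like cells and no crypt-like cell.

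The promoters of the members were searched for CACGTG, the E-box core, which reads the same on both strands. RefSeq promoters of GRCm38.p6 (250 bases before to 50 bases after a start site) were found for 32 of the 38 genes. Myc, Npm1, Fbl, Rrs1, Bop1 and Rrp12 had no promoter there and were not searched. CACGTG was present in 8 of these 32 (25.0%), in 11.8% of the tested genes with a promoter and in 8.09% of all 27025 genes in the table. A match describes letters in this window and is not evidence of binding. In Nop2, an RNA methyltransferase of the large subunit, and Imp4, a partner of U3 snoRNA, the match lay before the start. The 150 bases before these starts are shown 5′ to 3′ on the gene's strand with the match in capitals, Nop2 at chr6:125131733-125131882 and Imp4 at chr1:34439679-34439828, both on the plus strand:
Nop2: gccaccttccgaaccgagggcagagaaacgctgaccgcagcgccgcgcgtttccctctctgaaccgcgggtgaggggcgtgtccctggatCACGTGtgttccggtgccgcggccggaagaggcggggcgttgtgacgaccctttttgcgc
Imp4: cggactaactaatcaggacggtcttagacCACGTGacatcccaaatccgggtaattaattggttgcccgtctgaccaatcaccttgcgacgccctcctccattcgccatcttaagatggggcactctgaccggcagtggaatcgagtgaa

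In the other 6 genes the match lay within 50 bases after the start. These short windows carry the match in capitals with up to 10 bases on either side, cut at the end of the searched window, so that the flanks can be compared. They lie at chr17:71616222-71616247 (Wdr43, plus strand), chr11:3963967-3963992 (Pes1, plus), chr10:88826765-88826787 (Utp20, minus), chr11:72441357-72441376 (Mybbp1a, plus), chr11:82908357-82908382 (Nle1, minus) and chr11:74898094-74898119 (Tsr1, plus):
Wdr43: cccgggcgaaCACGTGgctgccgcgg
Pes1: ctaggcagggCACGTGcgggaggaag
Utp20: gcactaactaCACGTGaggaaaa
Mybbp1a: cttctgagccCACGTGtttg
Nle1: ggttctcctcCACGTGgggacgcagg
Tsr1: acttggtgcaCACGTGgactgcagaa

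The 8 genes with a match were all higher in crypt-like than in enterocyte-like cells, as were 36 of the 38 in all. They include Utp20 and Mybbp1a, the 2 genes with the widest differences, as well as Imp4 with 0.91.

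Other genes of the pathway were counted in the same fit. Beside them, 15.6% of all genes were higher in crypt-like than in enterocyte-like cells and 21.9% lower, with a median log2 fold change of -0.08. Of 48 further small-subunit factors 26 were higher in crypt-like than in enterocyte-like cells and none was lower, with a median log2 fold change of 0.97. Among them were Pwp2 (2.36 ± 0.44 SE, adjusted p = 0.000754), Wdr75 (2.16 ± 0.32 SE, adjusted p = 9.93e-05) and Tsr2 (2.09 ± 0.57 SE, adjusted p = 0.00891). Of 51 further large-subunit factors 29 were higher and 3 lower, with a median of 0.97. Npm3, a relative of nucleophosmin, was at 206 and 201 CPM in crypt-like and at 26.5 and 38.7 in enterocyte-like cells. Urb1 rested on 15 UMIs in crypt-like and 1 UMI in enterocyte-like cells, a ratio of 31.2 with a counting interval of 4.80 to 1314, and Ddx31 had a log2 fold change of 2.16 ± 0.69 (SE, adjusted p = 0.0217).

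For 18 subunits and factors of RNA polymerase I the count was 4 higher and none lower, with a median log2 fold change of 0.58, beside 15.6% higher and 21.9% lower among all genes. A count of 4 in 18 is near that background. Cd3eap (2.63 ± 0.44 SE, adjusted p = 0.000333), Polr2h (1.75 ± 0.25 SE, adjusted p = 8.44e-05) and Taf1d (1.47 ± 0.29 SE, adjusted p = 0.00105) had the largest changes. Polr2h is a subunit that RNA polymerase I shares with other nuclear RNA polymerases. Of 81 tested genes for cytosolic ribosomal proteins 69 were higher and none lower, with a median of 1.07. Rpl12 (1.66 ± 0.27 SE), Rpl14 (1.60 ± 0.30 SE) and Rpl3 (1.60 ± 0.36 SE) led this list.

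Partners and competitors of Myc went both ways. Of 11 tested genes of the Myc network 3 were higher and 6 lower in crypt-like cells, beside 15.6% and 21.9% of all genes. Mxd1, which encodes a protein that competes with MYC for MAX, fell from 73.3 and 174 CPM in enterocyte-like cells to 0.565 and 1.81 in crypt-like cells, where it rested on 1 UMI in each mouse. The ratio over both mice was 101 with a counting interval of 27.7 to 834. Mycl, a relative of Myc, was at 29.9 and 34.4 against 1.19 and 3.10 (log2 fold change 3.91 ± 0.81 SE, adjusted p = 0.00146). Mxd3 had 7 and 3 UMIs in crypt-like cells and 0 in enterocyte-like cells. The ratio was 6.94 when 3 UMIs over both mice were taken as the limit of a count of 0. Counting error of the crypt-like UMIs is not part of this ratio. Max, the partner that MYC needs, was lower in crypt-like cells (-1.69 ± 0.27 SE, adjusted p = 0.000203).

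Myc itself was not highest in crypt-like cells of either mouse on the TMM scale, on which B-like cells led in mouse 1 and tuft-like cells in mouse 2 (the plot of Myc by class shows CPM). Its level in CPM was 98.5 and 67.2 in B-like cells (148 and 16 UMIs), beside 74.6 and 103 in crypt-like cells, so that the values of these classes overlapped. In tuft-like cells it was 71.8 and 245, from only 4 and 11 UMIs. Myeloid-like cells with 25.5 and 32.2, T-like cells with 21.5 and 25.7 and enterocyte-like cells with 16.2 and 21.7 formed a middle group in which neighbouring classes overlapped. Cycling leukocyte-like cells (15.4 and 11.2) and the mixed secretory cluster (8.29 and 13.1) overlapped each other as well. Plasma-like cells were lowest with 2.32 and 2.90. These totals include immunoglobulin, 61.3% and 61.1% of the UMIs in plasma-like and 26.4% and 22.1% in cycling leukocyte-like cells. On the TMM scale the log2 level of Myc was 2.89 and 3.10 in plasma-like cells, near the mixed secretory cluster (3.16 and 3.21). Cycling leukocyte-like cells (4.28 and 3.68) then stood near T-like cells (4.10 and 4.23), so the order of these classes depends on the scaling.

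**Figure D3:**
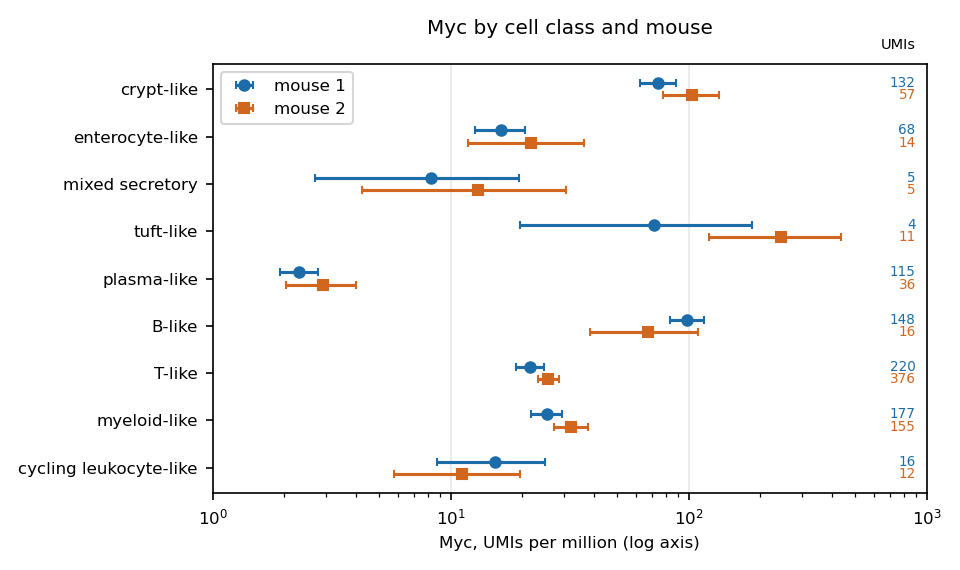
Myc in CPM (horizontal log axis) for each cell class and mouse, with the number of Myc UMIs printed at the right. Crypt-like (74.6 and 103) and B-like cells (98.5 and 67.2) overlap, tuft-like values rest on 4 and 11 UMIs, and plasma-like cells are lowest (2.32 and 2.90). Totals include immunoglobulin, which took 61.3% and 61.1% of plasma-like and 26.4% and 22.1% of cycling leukocyte-like UMIs.

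Crypt-like cells were next set against the mixed secretory cluster. Here 32 of the 38 genes were higher and none lower, against 11.3% higher and 12.9% lower of all genes tested, and the median log2 fold change of the members was 1.72. Myc had the widest difference, with 8.29 and 13.1 CPM in the secretory cells from 5 UMIs in each mouse (log2 fold change 3.09 ± 0.44 SE, adjusted p = 0.00032). Ncl followed with 358 and 629 CPM (2.48 ± 0.33 SE, adjusted p = 0.000196), and Npm1 with 829 and 1107 had 2.15 ± 0.25 (SE). Polr1b (2.38), Rrp1b (2.25), Nop2 (2.19) and Nhp2 (2.17) completed the largest changes. The values were 1.79 for Fbl, 1.96 for Nop56 and 1.74 for Nop58, all past the threshold.

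Within that cluster the cells differed. The 14 and 8 cells in which Paneth genes made up at least 10% of the UMIs had 1143 and 1166 CPM of the members together. The other 23 and 25 cells had 2994 and 3789. Split instead by the leading marker list, the order was another. The 20 and 8 cells led by Paneth genes had 3516 and 4015, those led by goblet genes 1497 and 5617 and those led by enteroendocrine genes 1939 and 2377. Whether the members are low or high in Paneth cells thus depends on how such cells are defined. Paneth genes took 41.2% and 56.7% of the UMIs in the cells with at least 10%, and against the rest of their UMIs the members stood at 1944 and 2690. Between 5% and 20% of Paneth-gene UMIs, near this limit, were 5 and 3 cells.

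**Figure D4:**
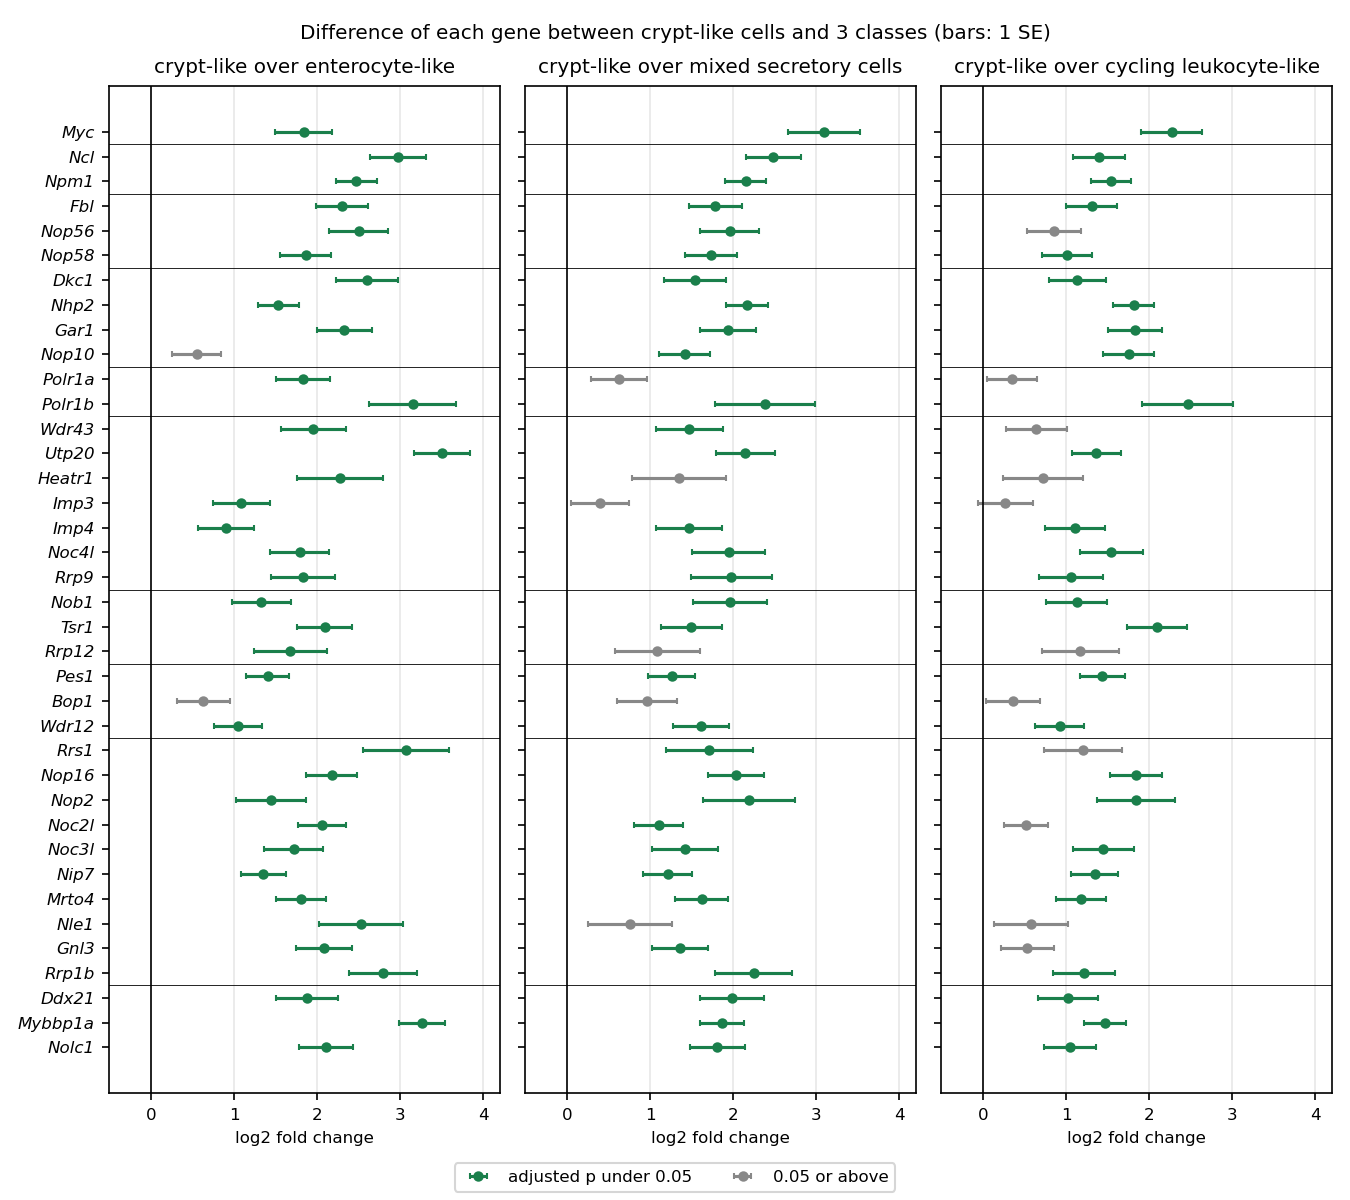
Log2 fold change of each gene in crypt-like cells over enterocyte-like cells, the mixed secretory cluster and cycling leukocyte-like cells (horizontal axes, TMM-scaled), with 1 SE as bars and genes grouped by role. Every point lies above 0, and grey points are those with an adjusted p of 0.05 or above (2, 6 and 11 genes).

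Comparison with cycling leukocytes asks whether dividing cells of another lineage carry the module at the same level. The 16 cycling markers were no less abundant in them than in crypt-like cells, at 4703 and 4952 against 3552 and 4503 CPM. Of the 38 genes 27 were higher in crypt-like cells and none was lower, while 16.3% of all genes were higher and 18.9% lower. The median log2 fold change of the members was 1.19. With library size alone, 33 members were higher and none lower, and the counts over all genes turned from 1926 higher and 2240 lower to 2948 and 1672. Without the crypt-like cells that held a Ptprc UMI, 26 members were higher, beside 1855 of 11870 genes tested. The 11 genes that did not pass the test had log2 fold changes between 0.27 (Imp3) and 1.2 (Rrs1).

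Polr1b (2.46 ± 0.55 SE, adjusted p = 0.00268) and Myc (2.27 ± 0.37 SE, adjusted p = 0.000251) had the widest differences. Myc was at 15.4 and 11.2 CPM in cycling leukocyte-like cells, of whose UMIs 26.4% and 22.1% were immunoglobulin. Polr1b rested on 6 and 3 UMIs there. Tsr1 (2.10), Nop16 (1.84), Nop2 (1.84) and Gar1 (1.83) followed. Ncl differed by 1.39 ± 0.31 (SE) and Npm1 by 1.54 ± 0.24 (SE). Of the box C/D proteins Fbl (1.31) and Nop58 (1.01) passed the test and Nop56 (0.85) did not, whereas all 4 box H/ACA proteins did.

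Of the 81 ribosomal protein genes 4 were higher in crypt-like than in cycling leukocyte-like cells and none was lower. Among all genes 16.3% were higher and 18.9% lower, so both counts are below that background. The median log2 fold change of the 81 genes was 0.19. B-like cells combined a high ribosomal protein share with a low member level (the plot of members against ribosomal protein genes). Ribosomal protein genes took 33.2% and 33.6% of their UMIs other than immunoglobulin, against 32.3% and 33.7% in crypt-like cells. Their member level on that scale was 3507 and 3093 CPM, against 12077 and 11708. That difference was not tested.

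**Figure D5:**
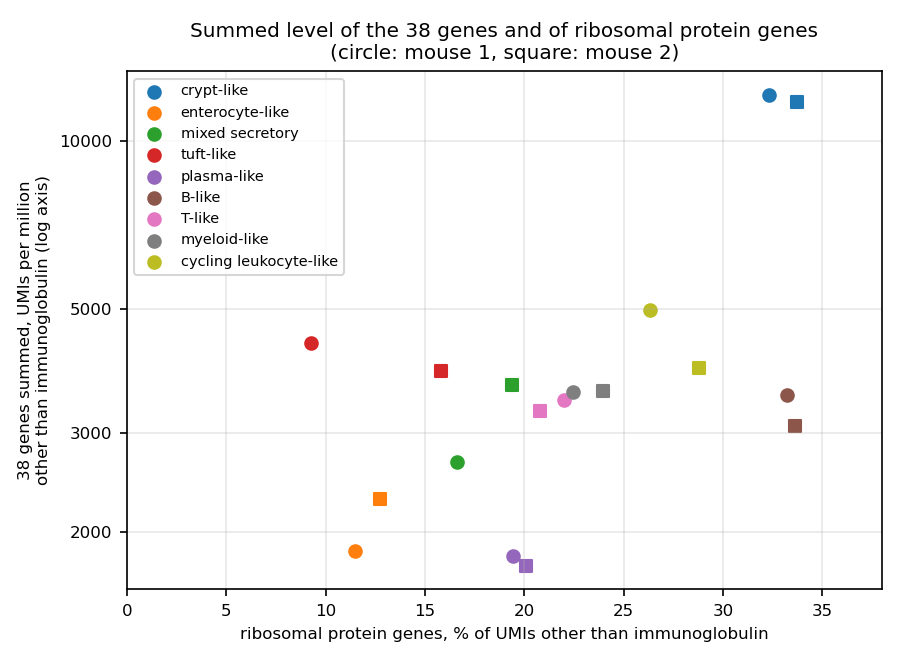
Summed level of the 38 genes (vertical log axis, CPM) against the share taken by cytosolic ribosomal protein genes (horizontal axis, percent), both over UMIs other than immunoglobulin, with circles for mouse 1 and squares for mouse 2. Crypt-like and B-like cells share a position near 33% on the horizontal axis but stand at 12077 and 11708 against 3507 and 3093 on the vertical one.

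Among leukocyte classes the number of members past the test was smaller. Between cycling leukocyte-like and T-like cells 10 of the 38 genes were higher and none lower, with a median log2 fold change of 0.27, beside 16.9% higher, 16.7% lower and a median of -0.27 among all genes. The largest changes were in Mrto4, a large-subunit factor (1.98 ± 0.30 SE, adjusted p = 0.000156), Nhp2 (1.39 ± 0.24 SE, adjusted p = 0.000451) and Gnl3, which encodes nucleostemin (1.30 ± 0.32 SE, adjusted p = 0.00538). Nop16 (1.27), Nop58 (1.24), Wdr12 (1.19), Npm1 (1.07), Gar1 (0.95), Fbl (0.90) and Bop1 (0.83) were also higher. Ncl (0.61), Nop56 (0.50) and Myc (-0.17) did not pass the test, and Myc went in opposite directions in the mice (0.19 and -0.55). This count depended on the settings more than any with crypt-like cells, and with library size alone as the scaling it became 2 higher and 3 lower, as all genes went from 1998 higher and 1983 lower to 1218 and 4311. When the mouse entered as a replicate block, 11 members were higher and 1 lower, beside 2315 higher and 2452 lower among all genes.

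Plasma-like cells differed from T-like cells in 4 genes that were higher and 3 that were lower, beside 20.5% higher and 18.6% lower among all genes. Both counts are below that background. A replicate block for the mouse left 4 higher and gave 7 lower, while all genes went from 2425 higher and 2201 lower to 2963 and 2823. Gnl3 (1.24 ± 0.31 SE, adjusted p = 0.00468), Imp3 (1.12 ± 0.31 SE, adjusted p = 0.010), Mrto4 (0.78) and Nop16 (0.73) were higher. Myc (-1.20 ± 0.31 SE, adjusted p = 0.00554), Rrp9 (-1.02 ± 0.29 SE, adjusted p = 0.0115) and Rrp1b (-0.88 ± 0.30 SE, adjusted p = 0.0307) were lower. Ncl (-0.80), Npm1 (-0.34), Fbl (-0.37), Nop56 (-0.41) and Nop58 (-0.14) did not pass the test. These directions depend on the scaling. With library size alone, which counts immunoglobulin transcripts in the total, all 38 genes were lower in plasma-like cells, the median of all genes was -1.93, and all genes went from 2425 higher and 2201 lower to 618 and 8897.

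Myeloid-like cells differed from T-like cells in 8 genes that were higher and none that was lower, with a median log2 fold change of 0.37, while 22.9% of all genes were higher and 19.6% lower. A count of 8 in 38 is near that background, and the count lower is below it. The count higher was 13 with the mouse as a replicate block, 15 with DESeq2 and 16 when the compared classes were fitted alone. Calls among all genes rose as well, from 2715 higher to 3329 of 11846 with the block. They were 3330 of 13558 with DESeq2 and 3714 of 12052 with the compared classes alone. Nop16 (1.83 ± 0.27 SE, adjusted p = 5.84e-05) and Mrto4 (1.67 ± 0.29 SE, adjusted p = 0.000227) had the widest differences. Nop16 was at 42.7 and 41.1 CPM in myeloid-like and at 16.4 and 12.5 in T-like cells. Nhp2 (1.38), Wdr12 (1.29), Fbl (1.29), Heatr1 (1.18), Pes1 (0.86) and Mybbp1a (0.60) were also higher. Myc (0.59), Npm1 (0.55), Nop58 (0.52), Ncl (-0.08) and Nop56 (-0.10) did not pass the test. With library size alone 5 members were higher and 1 lower, and all genes went from 2715 higher and 2324 lower to 2088 and 3258.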

How the data were processed

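Single-cell suspensions of 2 mice, the only samples, were profiled by 3′ droplet sequencing. The deposited matrices hold raw UMI counts per gene and cell, made by the authors with Cell Ranger 6.1.2 on mm10 (the annotation release is not given in the sources used here). The 38 genes and the other lists were chosen with earlier results of these data known. Barcodes with over 100 genes, over 400 UMIs, under 5% mitochondrial and under 10% haemoglobin UMIs were kept.

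Cells were integrated by reciprocal principal component analysis in Seurat 5.3.0 (2000 variable features without the members and lists, 30 dimensions, resolution 0.8), epithelial cells again by themselves, and clusters were named from marker genes. Scrublet (scanpy 1.11.5) called 1 and 0 cells as doublets and so had not worked; none was removed, and removing the 635 and 556 highest scores was an alternative. Counts were summed per mouse and class for the 9 classes in which each mouse had 20 cells or more. The 18 sums entered 1 fit of edgeR 4.0.16 (TMM, filterByExpr, quasi-likelihood test, two-sided, Benjamini-Hochberg over 11846 genes, threshold 0.05, 9 residual degrees of freedom), tested on simulated data; all 38 members passed the filter. With 2 mice, p-values rest on a spread shared by all classes. Levels are CPM of raw sums; fold changes are TMM-scaled. Classes of 1 mouse come from 1 animal and library, so the mouse pairs them; over 36 pairs of classes their deviations correlated between 0.034 and 0.593. Intervals are exact at 95%, and a count of 0 was given a limit of 3 counts. DESeq2 1.42.0 and other scalings, filters and clusterings were tried, some of them added after the data were seen. Values are given for Myc, Ncl, Npm1, Fbl, Nop56 and Nop58, for the 6 members with the largest change past the threshold and the same direction in both mice, for members against the main direction and for the 3 largest changes of each other list; further members were named after their values were seen.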

Additional observations from a re-analysis of the deposited data

Results flagged for a closer look

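Cells and barcodes outside the comparisons also held member transcripts, above the limit that a count of 0 allows. In CPM, neutrophil-like cells had 1901 and 1532 in mice 1 and 2 (20 and 10 cells) and pancreatic acinar-like cells of mouse 1 had 721. Clusters without a name had 1814 and 2821, and barcodes that failed the filters on cells had 1368 and 2387. None of these values reached those of crypt-like cells.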

How the results depend on the processing

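In the comparisons of crypt-like cells the number of members called higher was 35 to 37 against enterocyte-like cells, 27 to 33 against the mixed secretory cluster and 26 to 33 against cycling leukocyte-like cells over the alternatives, and none was called lower. Among all genes, 1699 to 2576, 676 to 1612 and 1787 to 2948 were called higher in these comparisons, of 6209 to 20529 tested. With 1 mouse left out there is no test; 38 members were then above 0 in each of these comparisons, except 37 against cycling leukocyte-like cells without mouse 2. The numbers above 0 were 23 to 30 for cycling leukocyte-like against T-like, 10 to 11 for plasma-like against T-like and 27 to 29 for myeloid-like against T-like cells. Of all genes, 41.3% to 52.4% were above 0 over these comparisons. A fit in which the mouse was a replicate block gave counts higher and lower of 36 and 0, 32 and 0, 30 and 0, 11 and 1, 4 and 7, and 13 and 0 in the order of the comparisons. Over all 11846 genes these counts were 2077 and 2982, 1612 and 1732, 2205 and 2467, 2315 and 2452, 2963 and 2823, and 3329 and 3079.

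Comparisons among leukocytes moved more, and the cause was not tested. The cells in a class also changed between settings, which holds for the comparisons with crypt-like cells as well. Cycling leukocyte-like cells went from 40 and 46 to 220 and 89 with a mitochondrial limit of 10%. They were 186 and 84 with the list genes kept. T-like cells of mouse 1 went from 2995 to 1336 without integration. Between cycling leukocyte-like and T-like cells the count higher fell from 10 to 2 with library size alone, 5 with the list genes kept among the features, and 4 with a mitochondrial limit of 10%, without integration or without the highest doublet scores. The count lower rose from 0 to 3 with library size alone, to 2 without integration, at resolution 1.2 and without the highest doublet scores, and to 1 with DESeq2, the 10% limit, immunoglobulin genes left out, the low-UMI enterocyte-like cluster left out or crypt-like cells with a Ptprc UMI left out. For plasma-like against T-like cells the count higher went from 4 to 0 with library size alone and to 2 with no filter on low counts, the 10% limit, no integration, resolution 0.4 or 1.2, or the list genes kept. The count lower went from 3 to 38 with library size alone, 10 with DESeq2 or no integration, 8 when the fit held the compared classes alone, the 10% limit or the highest doublet scores removed, 7 with the list genes kept, 6 at resolution 1.2 and 5 without immunoglobulin genes. With library size alone Gnl3 (-0.76), Imp3 (-0.89) and Mrto4 (-1.22) turned negative there. For myeloid-like against T-like cells the count higher went from 8 to 5 with library size alone, 15 with DESeq2 and 16 with only the compared classes, and the count lower from 0 to 1 with library size alone, only the compared classes, the 10% limit, no integration, resolution 1.2 or the list genes kept. Under library size alone all genes had a median log2 fold change of 0.24, 0.37, -0.93, -1.93 and -0.29 in the comparisons other than that with the mixed secretory cluster. Over the settings, counts of all genes higher and lower spanned 1218 to 2483 and 1968 to 4311 for cycling leukocyte-like against T-like cells. They spanned 618 to 3327 and 2157 to 8897 for plasma-like against T-like cells. For myeloid-like against T-like cells they spanned 2088 to 3714 and 2209 to 3416. Only 2 mice, and few UMIs for genes such as Polr1b, Rrs1 and Utp20 in enterocyte-like cells, limit the precision.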
